A study of Mus musculus with 9 samples.

Results

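The proteasome genes of the mouse cochlea were described across age and calorie restriction. Members were the probe sets of the deposited array table whose platform annotation gave exactly 1 gene symbol, starting with Psma, Psmb, Psmc, Psmd, Psme, Psmf or Psmg and followed by a number. They numbered 103 probe sets of 49 genes, among 45037 probe sets, and 18193 genes with a symbol of their own, in the table. Of these, 81 probe sets of 47 genes passed the filter on low signal that kept the brightest 27022 probe sets (a mean normalized log2 signal of at least 8.95). The other 22 probe sets did not, and Psma8 and Psmb11 had no probe set above it. Psme2 was not analysed here, since no probe set carried its symbol alone. Psmc3ip and Psme3ip1 match the naming rule but encode proteins that bind the proteasome or its activator, not subunits, and are given apart.

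Each of 9 arrays carried RNA from a pool of 4 cochleae of 2 mice, with 3 pools per group. All mice were male C57BL/6. The young controls (YC) were 4 months old and received 84 kcal per week, the 15-month controls (MC) received the same 84 kcal per week, and the calorie-restricted mice (CR), also 15 months old, received 62 kcal per week, a 26% reduction, from 2 months of age. The labels name no genotype, allele or drug for any group. C57BL/6 mice lose hearing with age, and the study compared YC with MC for age and MC with CR for diet. The MC arrays serve both comparisons, so their values stand side by side and are not independent.

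The proteasome is the barrel-shaped protease that degrades proteins tagged with ubiquitin. Its core is a stack of rings of alpha and beta subunits, with the proteolytic sites on beta subunits inside the barrel, and the regulatory cap at each end binds ubiquitin, unfolds the substrate with a ring of ATPases and feeds it into the core. Interferon replaces the catalytic subunits with Psmb8, Psmb9 and Psmb10, giving the immunoproteasome, whose peptides are favoured for antigen presentation. When proteasome capacity falls short, the transcription factor Nfe2l1 induces subunit genes together through antioxidant response elements in their promoters, and Nfe2l2 acts on the same element in oxidative stress.

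The element searched was TGACNNNGC on both strands, in the 250 bases before and 50 after the gene start, from RefSeq sequence of build GRCm38.p6. The table held promoters of 41 of the 49 genes, and 6 of them (14.6%) contained a match. Among 17492 protein-coding genes of the same table, 14.8% did, so the share in the proteasome genes was close to that of other genes. The matches are printed because this element is the known route of joint induction of subunit genes, each 5′ to 3′ in the direction that reads TGAC, with the matched bases in capitals.
Psmb5: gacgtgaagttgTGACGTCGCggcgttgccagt
Psmb6: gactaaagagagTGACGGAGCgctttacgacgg
Psmc6: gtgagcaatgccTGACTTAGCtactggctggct
Psmd12: ggggggcaaatgTGACACAGCaga
Psmd9: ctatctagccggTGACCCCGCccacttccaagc
Psme4: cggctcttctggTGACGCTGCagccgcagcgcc
The Psmb5 window lies at chr14:54618022-54618054, and the gene runs on the minus strand. The Psmb6 window lies at chr11:70525336-70525368 on a plus-strand gene. Counted from the gene start, the matches began at -47 in Psmb5, -9 in Psmb6 and -31 in Psmd9, and on the opposite strand at -7 in Psme4, -227 in Psmc6 and -247 in Psmd12. Psmb5 and Psmb6 encode catalytic subunits, Psmc6 a cap ATPase, Psmd12 a subunit of the cap's lid, Psmd9 an assembly chaperone and Psme4 the alternative activator PA200. A match is a description of letters and not of binding.

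No member probe set passed the threshold of an adjusted p of 0.05 in any of the 3 comparisons, by limma with Benjamini-Hochberg adjustment over all 27022 probe sets. The background was 0% of all probe sets called by age, 0.0925% by restriction (25 probe sets) and 0% between restricted and young mice. The smallest adjusted p among members was 1 for age, 0.146 for restriction and 0.457 for restricted against young mice. At an unadjusted p under 0.05, 1 of 81 members stood out by age against 3.39% of all probe sets, 4 (4.94%) by restriction against 18.5%, and 2 (2.47%) between restricted and young mice against 10.8%. These 4 restriction probe sets were Psmd3 and Psma2 and, named after their values were seen, second probe sets of Psmd11 and Psmf1. The 2 between restricted and young mice, also named after their values were seen, were the same second probe set of Psmd11, lower in CR, and a second one of Psmg2, higher in CR. The share of proteasome probe sets at that unadjusted level lay below the background in each comparison, by age on 1 probe set. At a mean log2 signal of at least 12 it was 1 of 38 by age (2.63% against 1.92% of such probe sets). By restriction it was 3 of 38 (7.89% against 18.3%) and between restricted and young mice 1 of 38 (2.63% against 15.1%). The differences were not tested.

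Separation of the arrays was counted next. By age, the groups did not overlap for 6 of 81 members (7.41%, near the background of 5.88%). By restriction they did not overlap for 21 (25.9%, background 37.8%), 12 with higher signal in CR (background 19.5%) and 9 with lower (background 18.2%). Between restricted and young mice they did not overlap for 15 (18.5%, background 20.5%). Many proteasome probe sets are bright, which makes them more precise, so the same was counted at a mean log2 signal of at least 12. There the restriction groups did not overlap for 9 of 38 members (23.7%) against 33.6% of 4169 probe sets. By age they did not overlap for 5 of 38 (13.2%) against 4.1%, a share above the background, and the difference was not tested. Between restricted and young mice they did not overlap for 10 of 38 (26.3%) against 24.3%, a share near the background. The median size of the log2 change by restriction was 0.193 among the bright members against 0.277 among bright probe sets, with median standard errors of 0.251 and 0.248.

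Each gene is represented below by its brightest probe set, on the scale of quantile-normalized log2(signal + 16), and a change is a difference of group means on that scale. By age, 31 of 47 genes were higher in MC and 16 lower, with a median change of 0.085, beside a median of 0.0275 and 53.4% higher over all 13702 genes. By restriction, 27 were higher in CR and 20 lower, with a median of 0.129 beside 0.0647 and 54.6% higher over all genes. The 95% interval lay within a 2-fold change in either direction for 32 of 47 genes by age (68.1%) and for 29 of 47 by restriction (61.7%). For the remaining genes a 2-fold difference lay inside the interval, so these arrays do not show that they were alike.

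**Figure D1:**
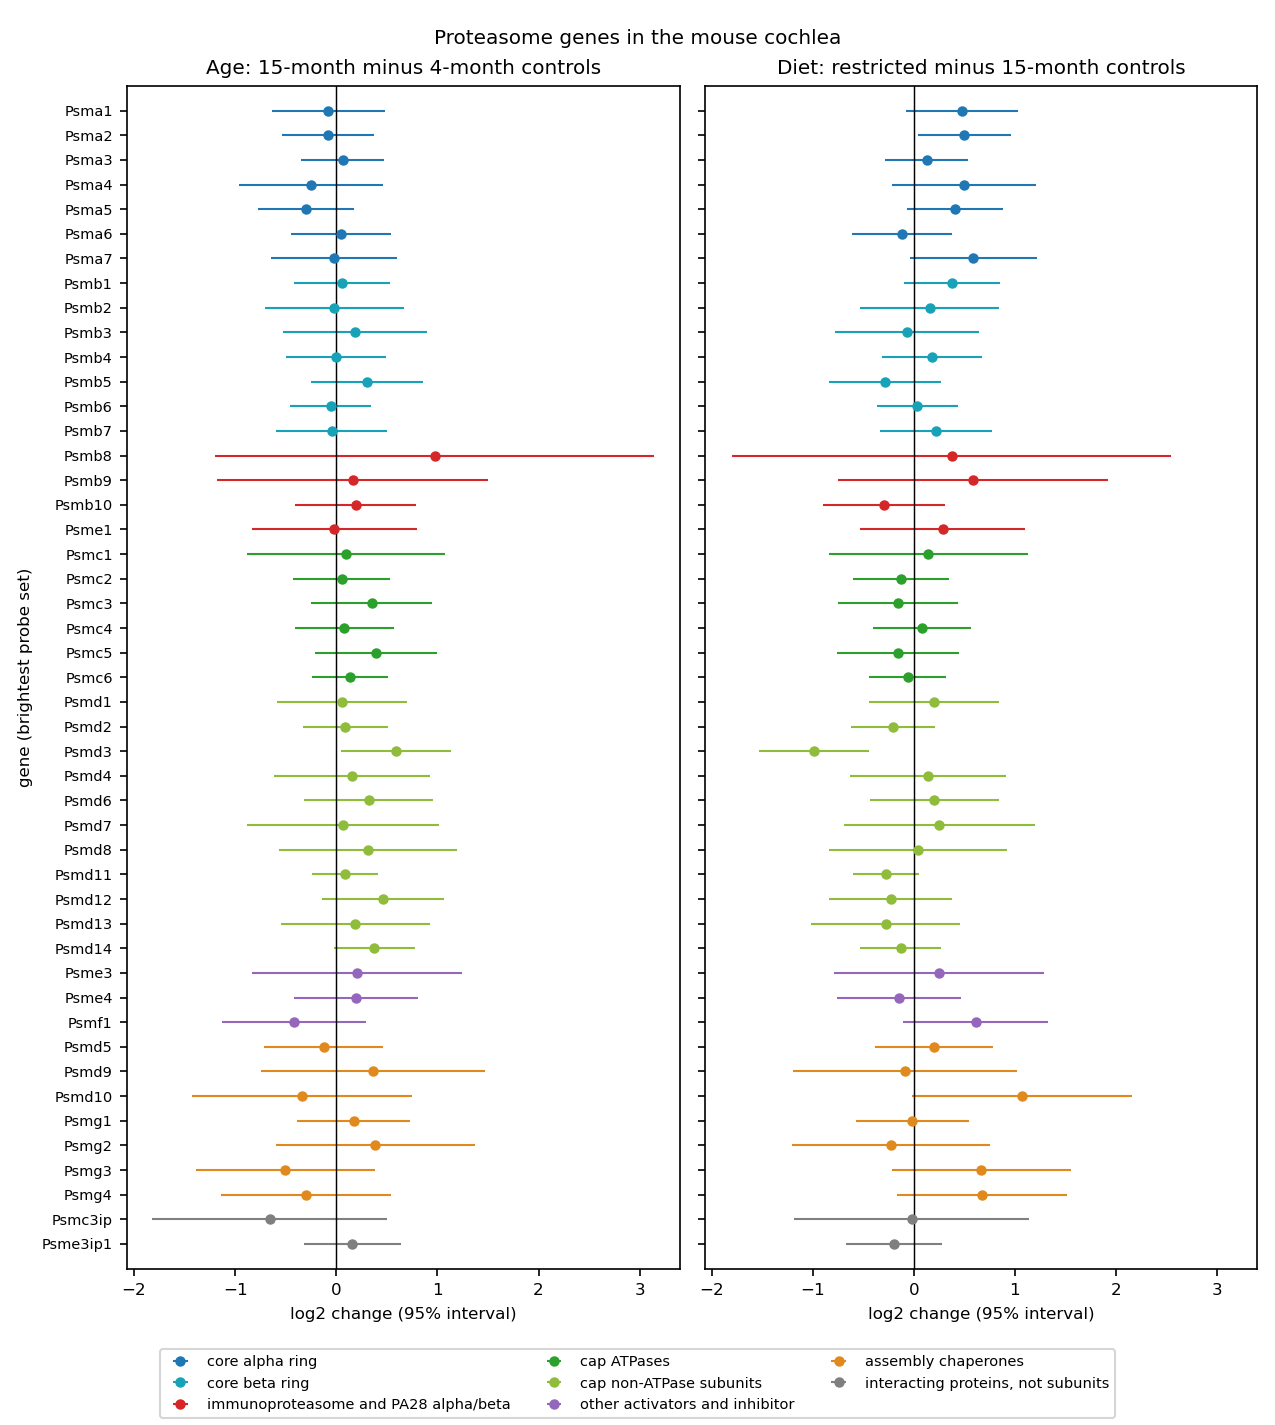
Log2 change of each of 47 genes (points, brightest probe set) with its 95% interval from limma (bars), by age on the left and by restriction on the right, coloured by role. The 11 cap non-ATPase and 6 cap ATPase genes all lie to the right of 0 by age, by 0.05 to 0.59, though 5 of 17 did with arrays centred on their medians, and 6 of 7 alpha ring genes lie to the right of 0 by restriction, against 4 of 7 with array class as a term.

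The arrays differed in ways that touch these genes. YC array 2 gave the lowest signal of all 9 arrays for 28 of the 47 genes (59.6%), against 28.2% of all genes, and the median of the member genes, each centred on its own mean, was -0.443 there and between -0.128 and 0.173 on the other 8 arrays. Without YC array 2, 17 of 47 genes were higher by age rather than 31, and the median change was -0.156. The array medians also differed. They ran from 526.8 to 626.6 in the 3 CR arrays and YC array 1 (the low class). In the other 5 they ran from 842.4 to 1103.9 (the high class), so array class and diet overlap almost wholly. No class held both MC and CR arrays. For restriction, a term for array class therefore rests on YC array 1 against YC arrays 2 and 3. Skeletal muscle markers were lower in CR, all 12 of 12 with a median change of -2.06 and 9 called, and their summed deposited signal was 275958 to 429967 in CR, 939500 to 1494270 in MC and 610107 to 1402230 in YC. Brain markers were higher in CR for 11 of 12, with summed signals of 44578 to 101644 against 19862 to 27386 in MC. Markers of the cochlea itself were present, 8 of 12 passing the filter with summed signals of 51761 to 182175 over all arrays; Kcne1, Slc26a5 and Tecta were below the filter and Slc17a8 had no probe set of its own. Cochlea markers were higher in CR for 7 of 8, with a median change of 0.978. The part of array class and of tissue composition in the proteasome results was not tested apart from the values given. In a bulk sample, fewer cells of a type and less RNA per cell cannot be told apart.

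**Figure D2:**
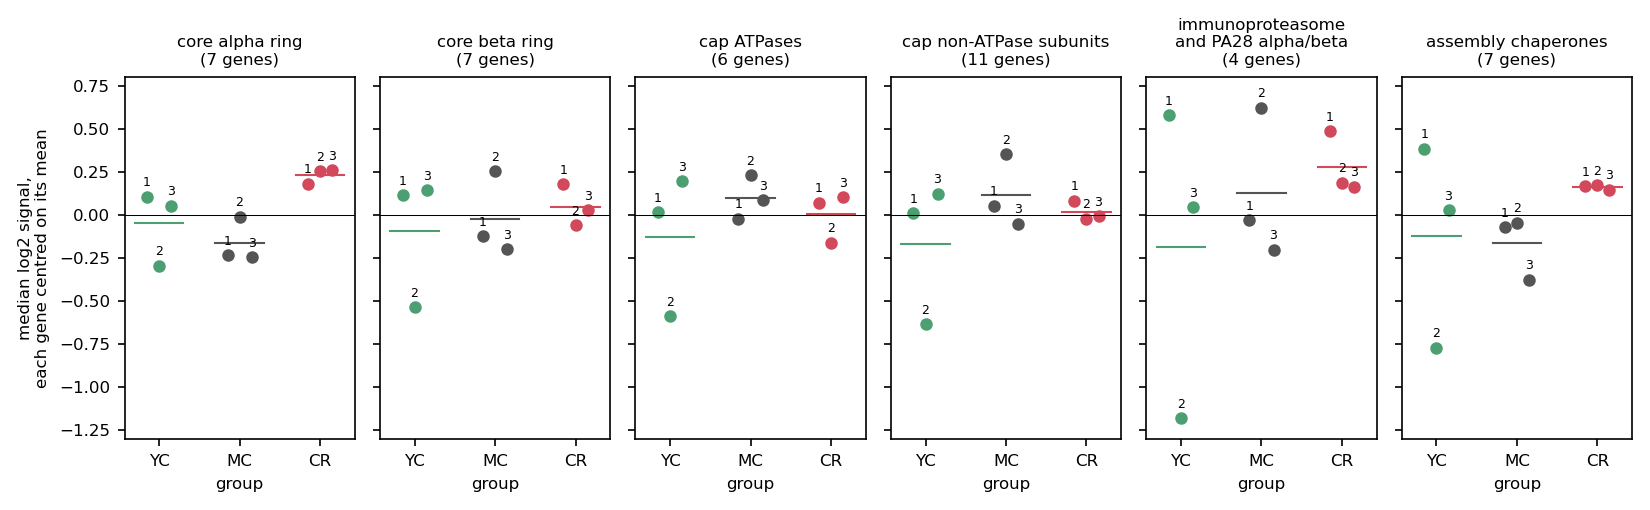
Median log2 signal of the genes of 6 roles on each array, each gene centred on its own mean over the 9 arrays; points are arrays with their replicate number and lines the means of the 3 arrays of a group (YC, MC, CR). YC array 2 is the lowest point in every panel, and in the alpha ring the 3 CR arrays, at 0.183 to 0.261, lie above all 3 MC arrays, at -0.245 to -0.008.

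The alpha ring forms the gated outer rings of the core. By restriction 6 of its 7 genes were higher in CR, with a median change of 0.474, and by age 2 of 7 were higher, with a median of -0.078. Psma2 had the smallest p of the ring by restriction. Its log2 signals were 13.05, 12.49 and 12.94 in YC, 12.65, 12.98 and 12.61 in MC, and 13.20, 13.33 and 13.20 in CR. All CR arrays lay above all others, whereas YC and MC overlapped. The change was 0.50 ± 0.21 (SE, n = 3 against 3; 95% interval 0.04 to 0.96; limma adjusted p = 0.241). Psma5 read 12.72, 12.72 and 12.99 in YC, 12.10, 12.71 and 12.71 in MC, and 12.93, 12.94 and 12.88 in CR. Its MC arrays lay below those of both other groups, at changes of -0.30 ± 0.22 by age (limma adjusted p = 1) and 0.41 ± 0.22 by restriction (limma adjusted p = 0.328). The other tested probe set of Psma5 went the other way, at 0.30 by age and -0.26 by restriction. Psma7 (0.59 ± 0.28), Psma4 (0.50 ± 0.32) and Psma1 (0.47 ± 0.25) had changes of like size, Psma3 a smaller one of 0.13 ± 0.19, and Psma6 a negative one of -0.12 ± 0.22. Psma1 and Psma6 also had tested probe sets of opposite sign by restriction, at -0.18 and 0.37. By their brightest probe sets, all 7 genes were higher in CR on the values as deposited (median 0.751) and with arrays centred on their medians (1.37, where all probe sets shifted by 0.58). With array class as a term, 4 of 7 were higher and the median was 0.172. Without MC array 3 all 7 were higher and the median was 0.276.

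The upstream sequence of Psma2 is shown because this gene separated the CR arrays; the CCAAT box, a common promoter motif, is in capitals. It covers the 250 bases before the gene start, chr13:14612992-14613241, plus strand.
Psma2: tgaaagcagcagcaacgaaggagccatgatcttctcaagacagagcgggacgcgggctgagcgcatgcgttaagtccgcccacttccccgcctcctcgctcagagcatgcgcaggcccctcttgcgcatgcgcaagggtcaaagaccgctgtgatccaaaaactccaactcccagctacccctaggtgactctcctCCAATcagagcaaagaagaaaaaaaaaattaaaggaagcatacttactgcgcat
CCAAT was present on either strand in 5 of the 7 alpha ring promoters, in 16 of 41 member promoters (39.0%) and in 42.3% of protein-coding genes.

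The beta ring carries the proteolytic sites. By restriction 5 of 7 genes were higher in CR, with a median of 0.157, and by age 3 of 7, with a median of -0.002. By restriction all 7 were higher on the values as deposited (median 0.466), 2 of 7 with array class as a term (median -0.036) and 4 of 7 without MC array 3 (median 0.024). Psmb5, the chymotrypsin-like subunit, had log2 signals of 13.64, 12.84 and 13.62 in YC, 13.90, 13.83 and 13.27 in MC, and 13.42, 13.35 and 13.37 in CR. The groups overlapped, and the changes were 0.30 ± 0.25 by age (limma adjusted p = 1) and -0.28 ± 0.25 by restriction (limma adjusted p = 0.538). Psmb6, the caspase-like subunit, read 13.12, 13.05 and 12.90 in YC, 13.18, 12.85 and 12.87 in MC, and 13.09, 12.90 and 13.02 in CR. Its range over all 9 arrays was narrow, and its 95% interval of -0.46 to 0.34 by age and -0.36 to 0.44 by restriction lay within a 2-fold difference. Psmb7, the trypsin-like subunit, read 14.12, 13.43 and 14.34 in YC, 13.80, 14.26 and 13.69 in MC, and 14.25, 13.95 and 14.21 in CR, with changes of -0.05 ± 0.25 and 0.22 ± 0.25. Psmb1, a structural beta subunit with the smallest p of the ring by restriction, read 13.51, 12.97 and 13.54 in YC, 13.32, 13.71 and 13.17 in MC, and 13.86, 13.85 and 13.62 in CR. All but one of its CR arrays lay above all the others, and the change was 0.38 ± 0.22 (limma adjusted p = 0.36). Another tested probe set of Psmb1 gave -0.56 by restriction.

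The immunoproteasome genes passed the filter on mean signal, with wide spread between arrays. Psmb8, which takes the place of Psmb5, read 11.65, 6.67 and 10.56 in YC, 10.78, 11.03 and 9.99 in MC, and 11.36, 10.81 and 10.76 in CR. YC array 2 stood far below the rest, below the 8.95 that the filter asks of the mean, and the change by age of 0.97 ± 0.98 (95% interval -1.20 to 3.15) became -0.50 without it. Psmb9, which takes the place of Psmb6, read 10.80, 8.95 and 10.16 in YC, 8.80, 10.88 and 10.70 in MC, and 10.91, 10.89 and 10.35 in CR. Here MC array 1 and YC array 2 were low, and the changes were 0.16 ± 0.61 by age and 0.59 ± 0.61 by restriction. Psmb10, which takes the place of Psmb7, read 11.69, 11.21 and 11.40 in YC, 11.30, 12.10 and 11.47 in MC, and 11.33, 11.35 and 11.32 in CR. Its CR arrays were nearly alike and lay within the range of MC, with a change of -0.29 ± 0.27 (limma adjusted p = 0.559). Psme1, the alpha subunit of the interferon-induced activator PA28, read 12.95, 11.28 and 12.47 in YC, 12.41, 12.31 and 11.91 in MC, and 12.65, 12.27 and 12.57 in CR, with changes of -0.02 ± 0.37 by age and 0.29 ± 0.37 by restriction. Of these 4 genes, 3 were higher by age (median 0.177) and 3 by restriction (median 0.332). By age 1 of 4 was higher without YC array 2 (median -0.422), without MC array 2 (median -0.06) and with arrays centred on their medians (median -0.081). By restriction 0 of 4 were higher with array class as a term (median -0.732), and without MC array 3 the median was 0.102. That class term rests on YC array 1 against YC arrays 2 and 3, so the low YC array 2 enters it.

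**Figure D3:**
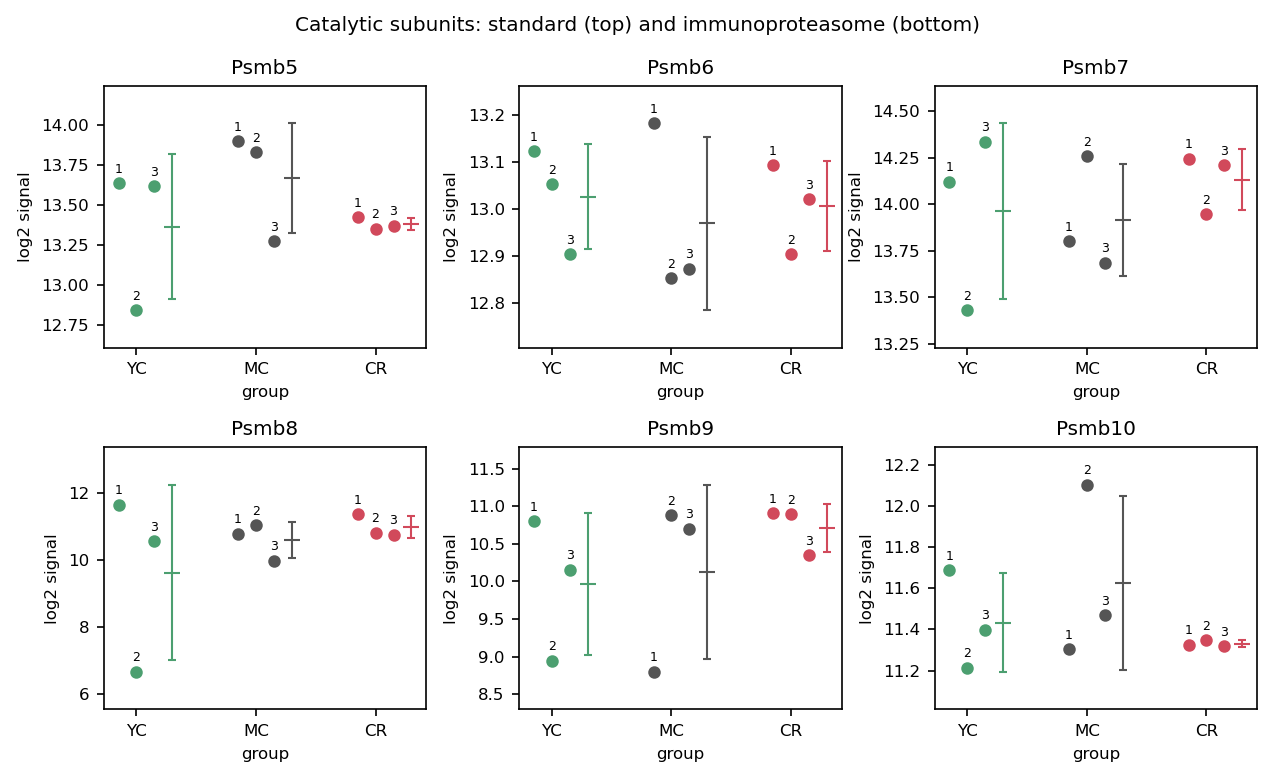
Normalized log2 signal of the standard catalytic subunits (top) and the immunoproteasome subunit that replaces each (bottom) on the 9 arrays; points are arrays with their replicate number and bars the mean ± SD of 3. Each panel has its own axis, which does not start at 0; Psmb8 ranges from 6.67 to 11.65, with YC array 2 lowest, and Psmb6 from 12.85 to 13.18.

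The Psmb8 promoter is shown because it holds a match to the gamma-activated site, TTCNNNGAA, a motif of interferon-gamma signalling. The match is in capitals and starts 97 bases before the gene start. Whether it is bound or acts in this gene was not tested. The sequence covers chr17:34197945-34198194, plus strand.
Psmb8: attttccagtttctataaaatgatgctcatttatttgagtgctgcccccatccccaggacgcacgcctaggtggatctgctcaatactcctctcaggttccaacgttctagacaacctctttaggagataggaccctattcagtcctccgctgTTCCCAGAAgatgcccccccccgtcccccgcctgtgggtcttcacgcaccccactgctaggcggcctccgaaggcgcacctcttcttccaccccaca
This motif, the same on both strands, was found in 3 of 41 member promoters (7.32%, Psmb8, Psmg1 and Psmd2) against 8.92% of protein-coding genes. The interferon-stimulated response element was also searched on both strands and was found in 5 (12.2%, Psme1, Psmb3, Psmd4, Psmd9 and Psmg4) against 3.94%. Of 15 listed genes of interferon signalling and antigen processing, 14 were measured; 7 were higher and 7 lower by age (median -0.071), 8 higher and 6 lower by restriction (median 0.275), and 0 passed the threshold. The smallest p by restriction belonged to the transcription factor Irf1 (-0.97 ± 0.30, limma adjusted p = 0.184) and the receptor chain Ifngr2 (-0.86 ± 0.36, limma adjusted p = 0.243). Irf1 was -0.40 with array class as a term and -0.20 with arrays centred on their medians, and Ifngr2 -0.60 and -0.31. On the values as deposited, Irf1 was -0.82 and Ifngr2 -0.93. Leukocytes are rich in immunoproteasome, and 9 of 12 of their markers were lower in CR than MC (median -0.294), with summed signals of 211380 to 218191 in CR, 214210 to 331832 in MC and 191675 to 320133 in YC. Their part in the immunoproteasome values was not tested.

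The cap genes had higher mean signal in MC than in YC. By the brightest probe set, all 6 ATPases, which unfold the substrate (median 0.115), and all 11 non-ATPase subunits (median 0.188) had a positive change by age, from 0.05 to 0.59. Over all their tested probe sets, 7 of 9 for ATPases and 17 of 21 for non-ATPase subunits were higher, and 1 of Psmd4 gave -1.06. None passed the threshold, and the direction depended on the scaling and on single arrays. It held for 12 of 17 on the values as deposited, for 5 of 17 with arrays centred on their medians (median -0.109, where all probe sets shifted by -0.154) for 11 of 17 without YC array 2 (median 0.05) and for 12 of 17 without MC array 2 (median 0.11). It held for all 17 among the arrays of high median alone (median 0.341). That set only drops YC array 1 from the young group, so YC array 2 weighs more in it. The cap median, each gene centred on its own mean, was -0.634 on YC array 2 and 0.131 on YC array 3. The core genes gave 5 of 14 higher by age (median -0.022). By restriction the cap had 7 of 17 higher (median -0.126) and the core 11 of 14 (median 0.2), but on the values as deposited 15 of 17 and 14 of 14 were higher, and with array class as a term 3 of 17 and 6 of 14. The difference between cap and core was not tested.

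Psmd3, a scaffold subunit of the cap's lid, had the smallest p of all members in both comparisons. Its log2 signals were 12.55, 12.67 and 12.90 in YC, 13.08, 13.30 and 13.53 in MC, and 12.62, 11.83 and 12.51 in CR. All MC arrays lay above all YC arrays and above all CR arrays, and YC and CR overlapped. The change was 0.59 ± 0.25 by age (1.51-fold; 95% interval 0.05 to 1.14; limma adjusted p = 1) and -0.98 ± 0.25 by restriction (1.98-fold lower; 95% interval -1.53 to -0.44; limma adjusted p = 0.146). It was the member closest to the threshold, and with only the MC and CR arrays in the fit it passed, at an adjusted p of 0.046, when 1846 of all probe sets did. The change by restriction was -0.75 with array class as a term and -0.68 on the values as deposited. With arrays centred on their medians it was -0.06, where all probe sets shifted by 0.58. Psmd11, another lid subunit, had 5 tested probe sets, all lower in CR. The brightest differed by -0.27 ± 0.15 (limma adjusted p = 0.331), with CR below MC on every array, and a second, chosen after its values were seen, by -0.86 ± 0.31 (limma adjusted p = 0.208). That probe set read 12.57, 13.96 and 13.15 in YC, 13.16, 13.10 and 13.16 in MC, and 12.02, 12.52 and 12.30 in CR, so that all CR arrays lay below all others. Psmd14, the deubiquitinase of the lid, was 0.37 ± 0.18 higher by age (95% interval -0.03 to 0.77; limma adjusted p = 1), with all MC arrays above all YC arrays, and -0.13 ± 0.18 by restriction. Psmd4, a ubiquitin receptor, differed by 0.15 ± 0.35 and 0.14 ± 0.35, and the large base subunits Psmd1 and Psmd2 by 0.20 ± 0.29 and -0.21 ± 0.19 under restriction.

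**Figure D4:**
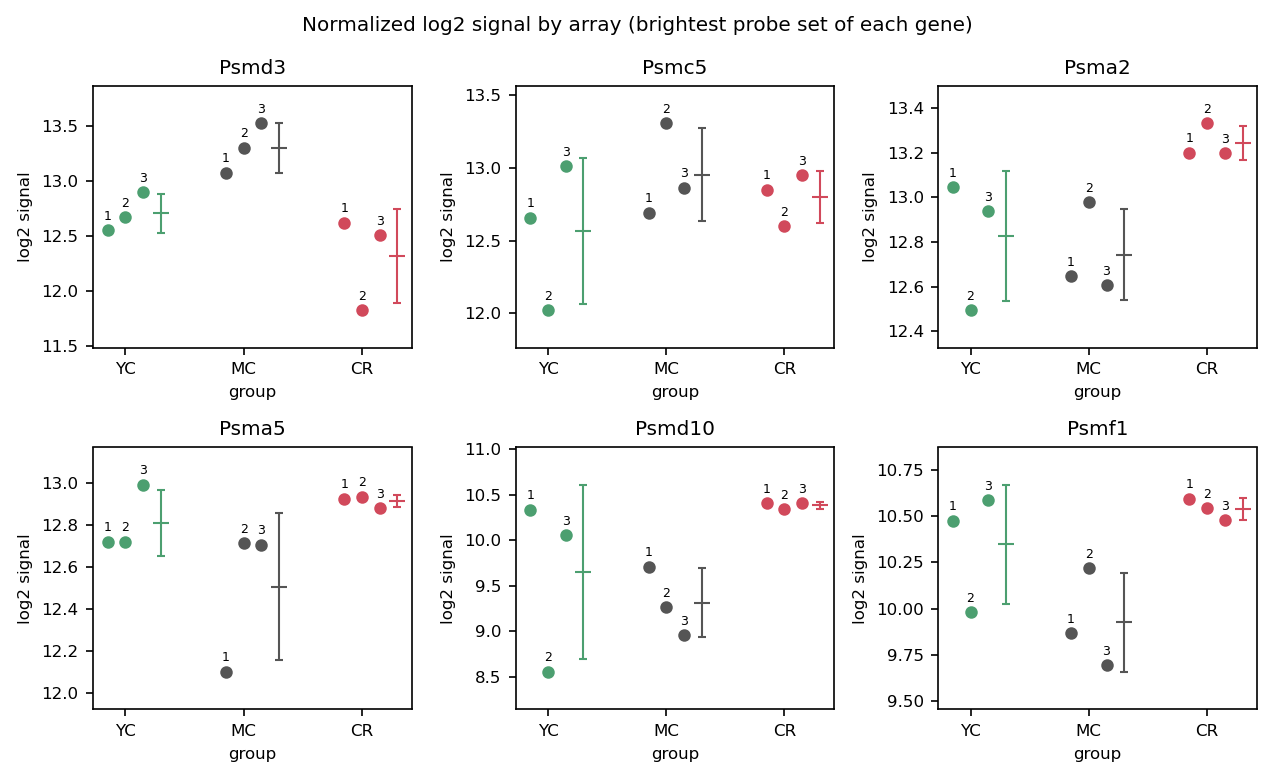
Normalized log2 signal of 6 genes on the 9 arrays, among those with the smallest p of their role; points are arrays with their replicate number and bars the mean ± SD of 3, each panel with its own axis, which does not start at 0. In Psmd3 the 3 MC arrays, at 13.08 to 13.53, lie above every other array, and in Psma2, Psma5, Psmd10 and Psmf1 the 3 CR arrays lie above the 3 MC arrays.

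Among the ATPases, Psmc5 had the smallest p by age. It read 12.66, 12.02 and 13.01 in YC, 12.69, 13.30 and 12.86 in MC, and 12.85, 12.60 and 12.95 in CR, and the groups overlapped at a change of 0.39 ± 0.27 (limma adjusted p = 1). Psmc2 had the smallest p by restriction and read 14.36, 14.15 and 13.92 in YC, 14.03, 13.90 and 14.66 in MC, and 14.18, 13.99 and 14.04 in CR. The groups overlapped at -0.13 ± 0.22 (limma adjusted p = 0.763). The other tested probe set of Psmc2 gave 0.17 by restriction. By their brightest probe sets, the other 4 ATPases differed by 0.08 to 0.35 by age and by -0.16 to 0.14 by restriction. A further tested probe set of Psmc6 gave -0.23 by age and 1.10 by restriction, and 1 of Psmc4 gave -0.32 and 0.53.

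The remaining activators open the core without ATP. Psme3, which forms the nuclear activator PA28 gamma, read 12.00, 9.86 and 11.63 in YC, 11.65, 11.33 and 11.11 in MC, and 11.74, 11.70 and 11.41 in CR. YC array 2 was again the lowest, and the changes were 0.20 ± 0.47 and 0.25 ± 0.47. The other tested probe set of Psme3 gave -0.65 by age and 0.76 by restriction. Psme4 read 12.78, 12.03 and 12.70 in YC, 12.70, 12.26 and 13.12 in MC, and 12.68, 12.33 and 12.65 in CR, overlapping in every comparison (0.19 ± 0.28 and -0.14 ± 0.28). The 3 other tested probe sets of Psme4 were lower by age. Over its tested probe sets the change by restriction ran from -0.94 to 0.46. Psmf1, an inhibitor of the core in vitro, read 10.47, 9.98 and 10.58 in YC, 9.87, 10.22 and 9.69 in MC, and 10.59, 10.54 and 10.48 in CR. The CR arrays lay above the MC arrays, by 0.61 ± 0.32 (limma adjusted p = 0.328), and YC overlapped both. Of its 3 other tested probe sets, 1 gave 2.34 ± 0.75 (limma adjusted p = 0.186), 1 gave 0.59 ± 0.87 and 1 gave -0.19 ± 0.39.

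Assembly chaperones are needed to build the particle and are absent from the finished one. Of 7, 4 were higher by restriction (median 0.196) and 3 by age (median -0.126). By restriction 2 of 7 were higher with array class as a term (median -0.328), and 7 of 7 with arrays centred on their medians (median 0.861). Psmd10, the base chaperone also called gankyrin, read 10.34, 8.55 and 10.06 in YC, 9.71, 9.27 and 8.96 in MC, and 10.41, 10.34 and 10.41 in CR. All CR arrays lay above all others, though YC array 1 came as close as the second decimal, and the change from MC was 1.07 ± 0.49 (2.1-fold; 95% interval -0.01 to 2.16; limma adjusted p = 0.274). With array class as a term it was 0.04. Psmg3, of the complex that starts the alpha ring, read 10.91, 10.98 and 10.02 in YC, 9.73, 10.88 and 9.78 in MC, and 10.96, 10.76 and 10.67 in CR, with changes of -0.51 ± 0.40 (limma adjusted p = 1) and 0.67 ± 0.40 (limma adjusted p = 0.378). Its partner Psmg4 gave -0.30 ± 0.38 and 0.68 ± 0.38, with all CR arrays above all MC arrays, and the change by restriction was -0.36 with array class as a term. The core chaperones Psmg1 and Psmg2 and the base chaperones Psmd5 and Psmd9 differed by -0.23 to 0.20 under restriction. Over the 3 tested probe sets of Psmg2 that change ran from -0.98 to 0.62. Of the 2 interacting proteins, Psmc3ip (a meiotic recombination cofactor) gave -0.66 ± 0.53 by age and -0.02 ± 0.53 by restriction. It read 10.31, 11.54 and 9.74 in YC, 8.95, 10.23 and 10.43 in MC, and 9.89, 9.75 and 9.91 in CR. Psme3ip1 (which binds PA28 gamma) gave 0.16 ± 0.22 and -0.19 ± 0.22. Its signals were 11.92, 12.07 and 11.88 in YC, 12.16, 11.85 and 12.34 in MC, and 12.00, 11.98 and 11.79 in CR.

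The remaining 2 members belong to cores that other tissues use. Psma8, the alpha subunit of the testis, and Psmb11, the catalytic subunit of the thymus cortex, had deposited signals of 99 to 926.1 and 28.1 to 560.4 over the 9 arrays and were not tested.

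Probe sets of the same gene often disagreed. Of 22 genes with several tested probe sets, 13 had opposite signs by age, 15 by restriction and 18 in at least 1 of them. The cause was not tested. The brightest probe set of a gene is therefore 1 reading of it, and the plot of changes against signal shows the others beside it.

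**Figure D5:**
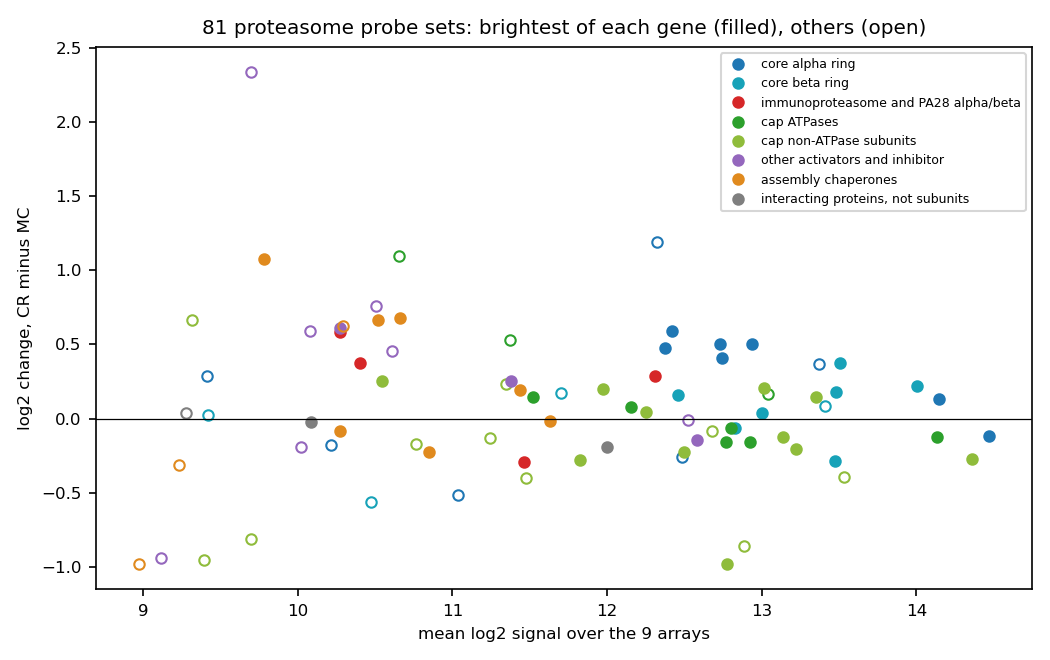
Log2 change by restriction (CR minus MC) of the 81 tested proteasome probe sets against their mean log2 signal over 9 arrays; filled points are the brightest probe set of each gene, open points its others, coloured by role. The brightest probe sets lie between -0.98 and 1.07, and the one far above them is the Psmf1 probe set at 2.34.

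The 6 genes with an antioxidant response element match had a positive change by age in 5 of 6 (median 0.246) and a negative change by restriction in 5 of 6 (median -0.113), beside 21 and 22 positive of the 34 other genes with a promoter and a tested probe set (medians 0.071 and 0.163). By restriction this count turned to 5 of 6 positive on the values as deposited and 6 of 6 with arrays centred on their medians, and by age it fell to 2 of 6 with arrays centred on their medians (median -0.088) and to 3 of 6 without YC array 2. Nfe2l1, named after its values were seen, read 12.99, 13.66 and 13.46 in YC, 13.78, 13.57 and 13.37 in MC, and 12.93, 12.75 and 13.19 in CR. Its CR arrays lay below its MC arrays at a change of -0.61 ± 0.22 (limma adjusted p = 0.21). That change was -0.26 as deposited, 0.36 with arrays centred on their medians and -0.05 with array class as a term. Nfe2l2, also named after its values were seen, gave 0.56, 1.18 and -0.68 by restriction under those alternatives, in that order. Of 31 listed ubiquitin genes and proteasome partners, 21 were measured; 13 were higher by age (median 0.114), 14 by restriction (median 0.275) and 0 passed the threshold. Usp14, the deubiquitinase bound to the cap, had the smallest p by restriction (-1.32 ± 0.33, limma adjusted p = 0.146, all CR arrays below all MC arrays), followed by the shuttle protein gene Ubqln2 (0.997 ± 0.34, limma adjusted p = 0.198, all CR arrays above all MC arrays). Usp14 was -0.19 with array class as a term and -0.43 with arrays centred on their medians, and Ubqln2 -0.15 and 1.965. On the values as deposited, Usp14 was -1.05 and Ubqln2 1.35.

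Restricted mice were also set against young controls, a comparison that shares arrays with both others. There 37 of 47 genes were higher in CR (median 0.192; 54.8% of all genes were higher), including all 7 chaperones (median 0.162), 6 of 7 alpha ring genes (median 0.247) and 6 of 7 beta ring genes (median 0.137). Without YC array 2 the median over the 47 genes was -0.03, and within the 4 arrays of low median it was -0.075 with 23 of 47 higher. Within those 4 arrays 2 of 7 chaperones were higher (median -0.279), 6 of 7 alpha ring genes (median 0.193) and 4 of 7 beta ring genes (median 0.013). The spread within groups was smallest in CR, with a median SD of 0.145 over member probe sets against 0.376 in MC and 0.487 in YC, and over all tested probe sets the medians were 0.21, 0.442 and 0.569.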

How the data were processed

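Whole-cochlea RNA was labelled and hybridised to 1-colour Affymetrix arrays, per the labels' protocols. The values the authors deposited are linear intensity signals per probe set; per the submitters' processing notes they came from GCOS 1.3. Which algorithm, scaling target and detection calls made them was not given in the sources used here. Trimmed by 2% at each end, array means were 1493.56 to 1496.42. Signals were transformed to log2(signal + 16), quantile-normalized and filtered at the 40th percentile of the mean log2 signal (a signal of 478.7). The 3 group means were fitted over all 9 arrays with limma 3.58.1 in R 4.3.3 (variance trend, Benjamini-Hochberg over 27022 probe sets, threshold 0.05), and the fit was tested on simulated data. Of 45037 probe sets, 34945 had 1 gene symbol, 932 several and 9160 none; 34741 of the named ones matched the RefSeq gene table. Gene roles, markers and named genes were chosen with earlier results of these data known. Values per array were given for the member of each role with the smallest p by age and by restriction, for the catalytic pairs and for the activators; of other lists, the smallest 2 p per comparison were eligible. Alternatives were other pseudocounts (1 and 64), no filter or a 60th-percentile filter, values as deposited, median centring, no trend, only the compared groups, averaging a gene's probe sets, array class, the replicate block and each array left out. Replicate numbers do not pair the arrays: same-numbered arrays correlated at -0.29 to 0.266 over 9 pairs, 2 of them above 0.1. Separate pools of mice are stated, so p-values measure the spread between pools. The number of arrays limits the precision.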

Additional observations from a re-analysis of the deposited data

How the results depend on the processing

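Over the 20 genes with values per array and their 2 comparisons, 708 of 778 values under the alternatives kept their direction and side of the threshold, 69 changed sign and 1, Psmd3 by restriction with only the compared groups, passed it. This count does not measure stability, since many of the values could not change sign. The filters, variance trend, replicate block and fit of only the compared groups leave each log2 change as it was. So does leaving out an array of the group not compared. By age, the array class term, the high class alone and the fit without YC array 1 give the same change. The pseudocounts changed no sign and no call of a member. The filters, variance trend and replicate block changed no call of a member, and under them no sign could change. The count of members called by restriction was 2 with only the compared groups (Psmd3 and a second Psmd11 probe set). It was 0 to 1 with an array left out, the 1 being that Psmd11 probe set without YC array 2 (limma adjusted p = 0.049). Over all probe sets, 1846 were called by restriction with only the compared groups and 987 without YC array 2. Such calls were therefore not particular to the members. No replicate pairing was found; with the replicate block 0 members were called in each comparison, and the calls over all probe sets by restriction went from 25 to 0. With 3 arrays a group and no detection calls, small differences and dim probe sets are the least certain.

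The median change of all member genes was -0.213 by age, 0.889 by restriction and 0.721 between restricted and young mice with arrays centred on their medians. With array class as a term it was -0.236 by restriction and -0.075 between restricted and young, as it also was within the low class. For restriction that term rests on YC array 1 against YC arrays 2 and 3. No array class held both MC and CR arrays. As deposited the median change was 0.27 by restriction, with 41 of 47 genes higher. With 1 array left out it ran from -0.156 to 0.159 by age, from 0.026 (without MC array 3) to 0.219 (without MC array 2) by restriction, and from -0.03 to 0.335 between restricted and young mice.

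Centred on array medians, changes by age turned to -0.262 for Psmb1, -0.094 for Psmb10, -0.027 for Psmb5, -0.068 for Psmb9, -0.205 for Psmc2, -0.233 for Psme3, -0.122 for Psme3ip1 and -0.166 for Psme4. Changes by restriction turned to 0.369 for Psmb10, 0.708 for Psmb5, 0.845 for Psmc2, 0.101 for Psmc3ip, 0.81 for Psmc5, 0.645 for Psme3ip1 and 0.798 for Psme4. On the values as deposited, they turned by age to -0.05 for Psmb1 and -0.02 for Psme3, and by restriction to 0.088 for Psmb5, 0.226 for Psmc2, 0.191 for Psmc5, 0.026 for Psme3ip1 and 0.178 for Psme4. With array class as a term, and within the high class, they turned by age to 0.027 for Psma2, 0.032 for Psmb7, 0.005 for Psmd10 and 0.338 for Psme1. With that term they turned by restriction to -0.107 for Psmb6, -0.019 for Psmb7, -2.655 for Psmb8, -0.658 for Psmb9, 0.307 for Psmc3ip, -0.788 for Psme1 and -1.006 for Psme3. The cause was not tested.

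With 1 array left out, values by age ran from -0.249 to 0.027 for Psma2, -0.129 to 0.172 for Psmb1, -0.047 to 0.352 for Psmb10, -0.164 to 0.001 for Psmb6, -0.314 to 0.14 for Psmb7, -0.501 to 1.985 for Psmb8, -0.347 to 0.827 for Psmb9, -0.177 to 0.202 for Psmc2, -0.887 to 0.005 for Psmd10, -0.496 to 0.338 for Psme1, -0.451 to 0.621 for Psme3 and -0.044 to 0.406 for Psme4. By restriction they ran from -0.021 to 0.143 for Psmb6, -0.078 to 0.964 for Psmb9, -0.275 to 0.104 for Psmc2, -0.48 to 0.26 for Psmc3ip, -0.285 to 0.021 for Psmc5 and -0.356 to 0.073 for Psme4.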
